A study of Rattus norvegicus with 30 samples.

Results

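The 10 genes described here take part in the cellular response to amino acid shortage and to stress of the endoplasmic reticulum (ER), and they were followed in rat testis during the first wave of spermatogenesis and in explants of prepubertal testis kept in organotypic culture. They are Atf4, Ddit3, Trib3, Chac1, Sesn2, Asns, Psat1, Phgdh, Slc7a5 and Xbp1, chosen by name and found by Entrez identifier among the 17322 genes of the table, where all 10 are present. The study compared testes matured in vivo with explants matured in vitro in order to find what differs when germ cells of cultured rat tissue stop in meiosis. Whole testes of Wistar Han rats were taken without culture at 6 ages from 8.5 to 53.5 days postpartum (dpp), the others being 14.5, 24.5, 30.5 as well as 36.5 dpp. Explants were fragments of 8.5 dpp testes of the same strain, kept on agarose at the gas-liquid interphase in αMEM with knock-out serum replacement, retinol and vitamin E for 6 days (D6), 16 days (D16), 22 days (D22) or 28 days (D28), which brought them to the ages of the testes at 14.5, 24.5, 30.5 or 36.5 dpp in turn. Each group had 3 libraries of polyadenylated RNA, except 14.5 dpp with 2, because the column of the third 14.5 dpp library, which the study excluded, is listed at 0 for all genes. Each cultured library pooled explants after removal of their necrotic centre, and each in vivo library was a different testis.

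ATF4 is a transcription factor whose protein is made when phosphorylation of the initiation factor eIF2 slows general translation, which the kinase GCN2 does when amino acids are short and the kinase PERK does when unfolded protein gathers in the ER. ATF4 then raises genes for amino acid synthesis and uptake, for redox balance and, when stress lasts, for cell death, several of them together with the factor CHOP that Ddit3 encodes. XBP1 belongs to another arm of ER stress, in which the sensor IRE1 splices Xbp1 mRNA into the form that encodes an active factor. Serine and one-carbon metabolism supply nucleotide synthesis in dividing cells such as spermatogonia, and in testis Sertoli cells supply germ cells with nutrients. Gene levels report the amount of mRNA and neither the ATF4 protein nor the splicing of Xbp1.

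The promoters of 3 of the genes are shown first, because they hold a sequence that is known as a binding element of this pathway. RefSeq promoters (build GRCr8, 250 bases before to 50 bases after the annotated start) were found for all 10 genes and searched on both strands. The C/EBP-ATF response element, TGATGNAA, which ATF4 binds with a C/EBP partner, occurred in 3.98% of 33469 promoters and in 2 of the 10, those of Chac1 and Trib3. The Chac1 promoter lies at chr3:126795881-126796180 on the plus strand, and its match, in capitals and read on the opposite strand, begins 167 bases before the start. The Trib3 promoter lies at chr3:161275484-161275783 on the minus strand, and its match, also read on the opposite strand, begins 21 bases before the start. The ER stress response element, the motif of the factor ATF6 with CCAAT and CCACG set 9 bases apart, occurred in 0.0657% of promoters and in that of Xbp1, at chr14:84604373-84604672 on the plus strand, from 65 bases before the start. The letters TGACGTGG, an element read by XBP1 and ATF6, and TGACGTCA, the cyclic AMP response element, share their first 6 letters and occurred in 0.595% and 1.83% of promoters and in 0 of the 10. A match describes the letters of the window and not a bound site. In the lines below, the capitals mark the matches.
Chac1: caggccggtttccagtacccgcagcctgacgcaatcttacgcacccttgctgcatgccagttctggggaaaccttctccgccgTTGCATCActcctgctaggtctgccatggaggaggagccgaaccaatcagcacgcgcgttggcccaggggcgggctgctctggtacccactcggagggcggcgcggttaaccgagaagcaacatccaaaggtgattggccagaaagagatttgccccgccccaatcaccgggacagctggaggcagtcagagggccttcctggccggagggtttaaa
Trib3: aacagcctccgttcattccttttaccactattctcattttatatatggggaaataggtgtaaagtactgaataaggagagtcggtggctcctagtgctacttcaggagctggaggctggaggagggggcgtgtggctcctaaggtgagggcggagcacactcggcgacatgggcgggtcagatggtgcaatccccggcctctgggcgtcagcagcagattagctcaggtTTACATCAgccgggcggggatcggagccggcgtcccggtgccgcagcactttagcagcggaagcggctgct
Xbp1: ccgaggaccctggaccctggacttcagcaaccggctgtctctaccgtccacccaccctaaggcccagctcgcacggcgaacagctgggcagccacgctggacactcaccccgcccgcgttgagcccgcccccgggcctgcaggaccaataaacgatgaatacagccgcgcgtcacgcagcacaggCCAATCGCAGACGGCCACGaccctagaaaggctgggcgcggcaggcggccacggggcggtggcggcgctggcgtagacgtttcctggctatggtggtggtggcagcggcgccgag

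The deposited values are fragments counted per length of transcript and per total of mapped reads (FPKM), so levels can be compared between genes per length. Each library listed 12520 to 13563 genes above 0. The read depth behind each value is unknown, because the table gives no counts. A value of exactly 0 is read only as listed at 0, since Tars1, a threonyl-tRNA synthetase needed by every cell and named after its values were seen, is listed at 0 in all 8.5 dpp libraries. Markers of cell types moved with the groups. Summed over 9 germ cell markers, levels were 27.8 to 30.6 FPKM at 8.5 dpp, 113 to 279.5 FPKM at 14.5 dpp and 11349.5 to 16919.8 FPKM at 53.5 dpp, with Prm1 at 0 up to 24.5 dpp, and 54.6 to 131 FPKM in all cultured libraries. Summed over 7 Sertoli cell markers, they were 490 to 684 FPKM at 8.5 dpp, 67.0 to 74.0 FPKM at 53.5 dpp and 654 to 982 FPKM in culture. In bulk tissue, fewer cells of a type and less RNA per cell cannot be told apart. Genes were compared on log2(FPKM + 1) with limma and called at a Benjamini-Hochberg adjusted p of at most 0.05 over all genes tested if the medians of the groups also differed 2-fold or more, so fold changes of low genes are understated. Values after ± are standard deviations (SD) for FPKM and standard errors (SE) for log2 fold changes.

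During maturation in vivo, mRNA of the 2 transcription factors that open and extend the response moved in opposite directions, with Atf4 lower and Ddit3 higher at 53.5 than at 8.5 dpp. Of the 9 genes tested over the 6 ages, 8 were called by the F test, beside 90.2% of all genes, so a change with age was usual in this tissue. From 8.5 to 53.5 dpp, 4 genes were called lower, Xbp1, Atf4, Psat1 and Chac1, and 1 higher, Ddit3, beside 73.9% of all genes called (50.2% lower, 23.7% higher), and 4 were not called. The genes called at the steps between neighbouring ages, in order, were 4, 3, 4, 0 and 0, beside 14.7%, 35.6%, 37.6%, 7.49% and 6.54% of all genes. At the last 2 steps limma gave an unadjusted p under 0.05 for 5 and 4 genes. Over the whole span the median over the 9 genes was -0.66, beside -0.74 over all 12531 genes tested.

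Atf4 was at 225, 218 and 241 FPKM at 8.5 dpp, 173 and 148 FPKM at 14.5 dpp, 98.6, 90.9 and 93.5 FPKM at 24.5 dpp, 67.9, 49.3 and 57.5 FPKM at 30.5 dpp, 46.4, 41.5 and 41.1 FPKM at 36.5 dpp and 30.1, 33.9 and 33.9 FPKM at 53.5 dpp. The libraries of each age lay wholly below those of the age before. The log2 fold change from 8.5 to 53.5 dpp was -2.77 ± 0.11 (adjusted p = 7.95e-12), a fall larger than the shift of -0.74 of all genes. No single step between neighbouring ages reached a ratio of 2. Xbp1, the factor of the IRE1 arm, followed a like path, with 79.0, 71.8 and 71.4 FPKM at 8.5 dpp, 57.2 and 85.8 FPKM at 14.5 dpp, 38.8, 31.5 and 33.4 FPKM at 24.5 dpp, 17.9, 12.3 and 18.4 FPKM at 30.5 dpp, 10.8, 11 and 11.7 FPKM at 36.5 dpp and 5.62, 6.46 and 7.43 FPKM at 53.5 dpp. The first 2 ages overlapped, and from 24.5 dpp each age lay below the age before. Its log2 fold change from 8.5 to 53.5 dpp, -3.33 ± 0.16 (adjusted p = 5.76e-11), was the largest fall of the 9 genes.

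Ddit3 was at 14.3, 16.2 and 15.6 FPKM at 8.5 dpp, 23.3 and 24.9 FPKM at 14.5 dpp, 43.7, 41.2 and 36.6 FPKM at 24.5 dpp, 60.2, 60.0 and 59.3 FPKM at 30.5 dpp, 50.3, 57.1 and 56.8 FPKM at 36.5 dpp and 41.7, 51.3 and 49.7 FPKM at 53.5 dpp. The 4 youngest ages did not overlap, and the 30.5 dpp libraries were above all others of the study. From 8.5 to 53.5 dpp the log2 fold change was 1.56 ± 0.10 (adjusted p = 8.36e-10), against the shift of all genes. In GRCr8, Ddit3 shares 62 bases with Mars1, the methionyl-tRNA synthetase gene, and 3930 bases with a further protein-coding locus, and whether strand was used in counting is not stated. Mars1 itself was at 17.8 to 19.6 FPKM at 8.5 dpp and 9.61 to 11.8 FPKM at 53.5 dpp.

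The serine synthesis enzymes peaked early. Psat1, the phosphoserine aminotransferase, was at 39.4, 45.4 and 32.7 FPKM at 8.5 dpp, 112 and 117 FPKM at 14.5 dpp, 46.5, 45.2 and 73.9 FPKM at 24.5 dpp, 20.3, 16.3 and 20.8 FPKM at 30.5 dpp, 16.0, 13.6 and 12.4 FPKM at 36.5 dpp and 7.11, 8.79 and 8.98 FPKM at 53.5 dpp. Both 14.5 dpp libraries were above every other in vivo library. Psat1 rose from 8.5 to 14.5 dpp by 1.54 ± 0.20 (log2, adjusted p = 5.91e-05) and then had log2 changes of -1.08 to 24.5 dpp and -1.45 to 30.5 dpp, both called (adjusted p = 0.000354 and 7.3e-06). The call to 24.5 dpp ended at -0.97 without 24.5 dpp replicate 1 and at -0.95 without replicate 2, and that to 30.5 dpp at -0.94 after rescaling of libraries by their median ratio. Phgdh, the phosphoglycerate dehydrogenase that makes the first step of the same pathway, was at 22.6 to 24.0 FPKM at 8.5 dpp, at 36.9 and 82.8 FPKM in the 14.5 dpp libraries and at 10.7 to 13.0 FPKM at 53.5 dpp. The 14.5 dpp libraries differed from each other more than any other pair of replicates of this gene. The rise of Phgdh to 14.5 dpp, 1.22 ± 0.22 (log2, adjusted p = 0.000754), was called, and without 14.5 dpp replicate 2 it was 0.65 and not called.

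Sesn2, a sestrin that restrains the growth kinase mTORC1 when leucine is short, was highest at 24.5 dpp. It was at 6.33, 7.49 and 5.54 FPKM at 8.5 dpp, 9.21 and 21.4 FPKM at 14.5 dpp, 25.6, 24.6 and 23.3 FPKM at 24.5 dpp, 12.3, 11.8 and 12.0 FPKM at 30.5 dpp, 8.46, 9.23 and 7.28 FPKM at 36.5 dpp and 6.29, 7.14 and 7.75 FPKM at 53.5 dpp. The 24.5 dpp libraries were above all other in vivo libraries, and the oldest testes overlapped the youngest. Sesn2 rose to 14.5 dpp by 1.03 ± 0.23 (log2, adjusted p = 0.00291), a call lost at 0.46 without 14.5 dpp replicate 2, and was lower at 30.5 than at 24.5 dpp, with a log2 change of -0.97 ± 0.21 (adjusted p = 0.000772). The latter call ended after rescaling by the median ratio, at -0.47, and from 8.5 to 53.5 dpp Sesn2 was then called higher, at 1.09. Slc7a5, the transporter of leucine and other large neutral amino acids, also peaked at 24.5 dpp, with 97.9, 84.3 and 62.1 FPKM there, 32.9 to 36.1 FPKM at 8.5 dpp, 39.9 to 43.7 FPKM at 14.5 dpp and 20 to 23.2 FPKM at 53.5 dpp. All 24.5 dpp libraries were above those of the other ages, the lowest by a narrow margin over one 30.5 dpp library at 62.0 FPKM. The rise to 24.5 dpp was 0.92 ± 0.21 on the log2 scale (adjusted p = 0.00170), and the call ended at 0.86 without 14.5 dpp replicate 1, at 0.78 without 24.5 dpp replicate 1 and at 0.88 without 24.5 dpp replicate 2.

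The other genes were low or variable in vivo. Chac1, an enzyme that degrades glutathione, was at 0.714 to 0.869 FPKM at 8.5 dpp, 1.67 to 1.97 FPKM at 14.5 dpp, 0.645 to 1.29 FPKM at 24.5 dpp and 0.137 to 0.453 FPKM from 30.5 dpp. Its log2 change was 0.65 ± 0.13 from 8.5 to 14.5 dpp and -0.64 ± 0.12 from 24.5 to 30.5 dpp, both called (adjusted p = 0.00136 and 0.000229), and the former call ended at 0.46 under quantile normalization. With the 2-fold limit set on the log2(FPKM + 1) scale in place of the ratio of medians, both calls ended. That of Chac1 from 8.5 to 53.5 dpp then ended too, at -0.60. Asns, the asparagine synthetase, was at 18.3 to 51.0 FPKM over all in vivo libraries and was the gene of the 9 whose course was not called (F test, adjusted p = 0.108). Its 24.5 dpp libraries, 34.3, 51.0 and 18.3 FPKM, spanned that whole range, and the course was called without replicate 2 or replicate 3 of them (adjusted p = 0.0406 and 0.00867). After rescaling by the median ratio it was called too, with 1.77 from 8.5 to 53.5 dpp on the log2 scale. Trib3, a pseudokinase induced by ATF4 and CHOP that acts back on ATF4, was at 0 FPKM in 12 of 17 in vivo libraries and at most 0.301 FPKM in the other 5, so it did not pass the filter of a median of 0.5 FPKM and was not tested over age.

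**Figure D1:**
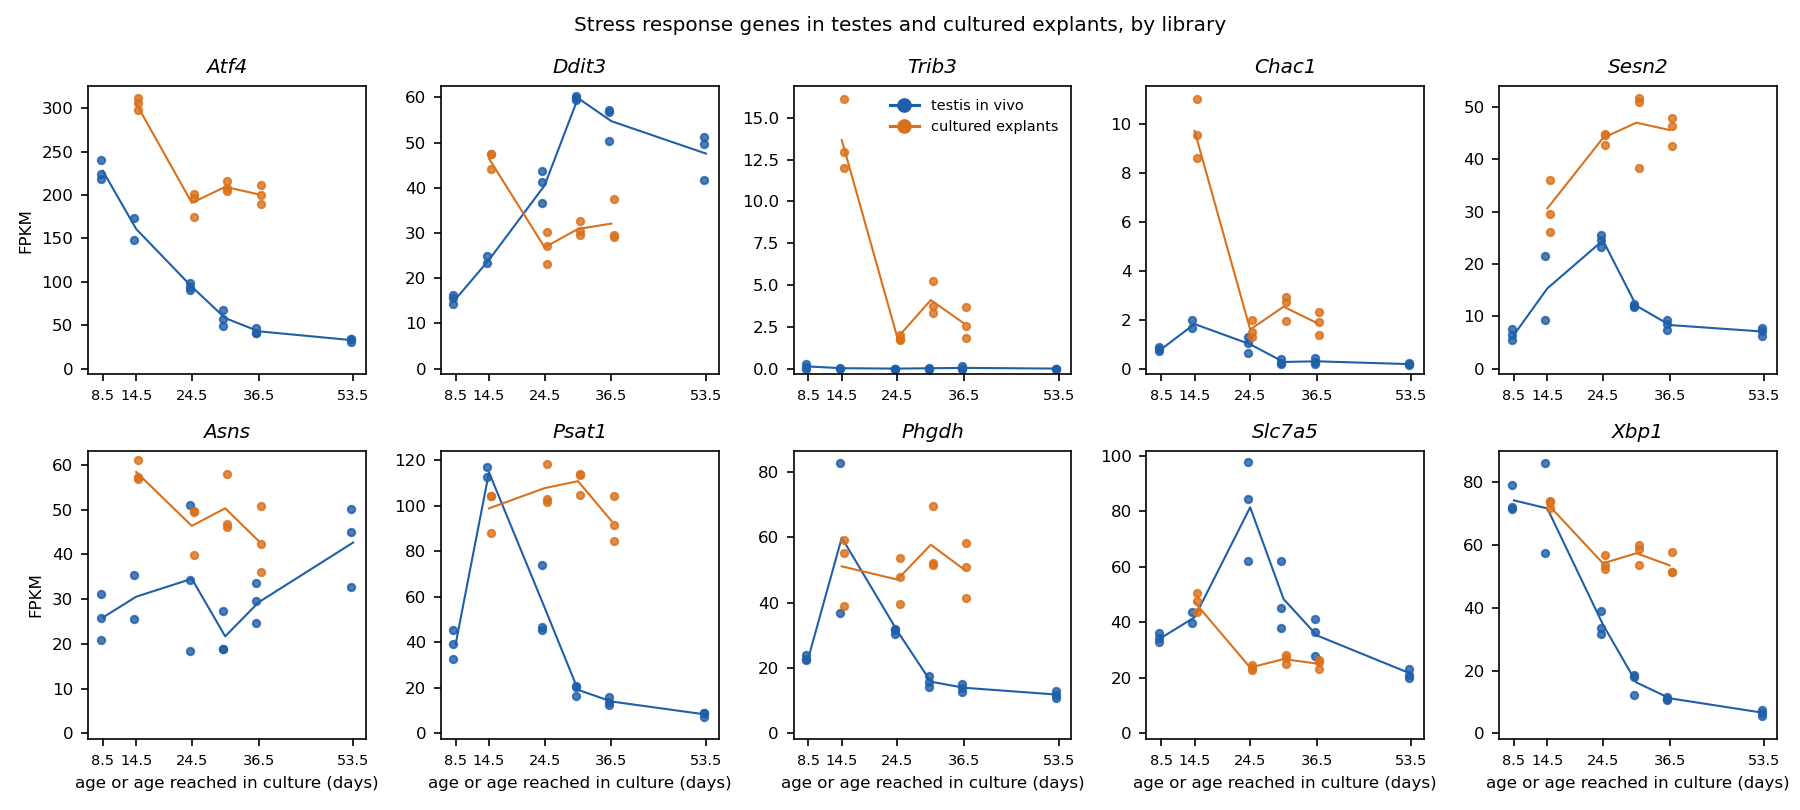
Level of each gene in FPKM (vertical axes, each from 0 with its own scale) against age, or age reached in culture, in days (horizontal axes). Points are libraries and lines join group means, blue for testes in vivo and orange for cultured explants. Trib3 is near 0 in vivo and at 12.0 to 16.1 FPKM at D6, Sesn2 is above all in vivo libraries at each culture time, and Ddit3 is higher in testes of 30.5 and 36.5 dpp than in all cultured explants.

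The 8.5 dpp testes have the age at which explants were taken, and against them 7 of the 10 genes were called after 6 days of culture, while 16.4% of all 11539 genes tested were called in either direction. The 7 were Trib3, Chac1, Sesn2, Ddit3, Psat1, Asns and Phgdh, all higher at D6 (10.3% of all genes were called higher). The median log2 fold change over the 10 genes was 1.24, beside 0.06 over all genes. Trib3 passed the filter only through the cultured libraries, here and in every comparison with testes below, so that it had to differ, and its values are a description given with no p. Of the 9 genes that passed otherwise, 6 were called at D6. The 4 culture times share the 8.5 dpp libraries.

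Trib3 stood at 12.0, 16.1 and 12.9 FPKM at D6, 1.74, 2.01 and 1.78 FPKM at D16, 3.72, 3.31 and 5.26 FPKM at D22, and 3.68, 1.85 and 2.55 FPKM at D28, beside 0.301, 0 and 0.0784 FPKM at 8.5 dpp. Every cultured library was above every in vivo library. The log2 fold change at D6 was 3.70 ± 0.18, and no ratio of FPKM is given because the in vivo libraries are at or near 0. Chac1 was at 9.53, 8.61 and 11 FPKM at D6, 1.49, 2.00 and 1.31 FPKM at D16, 2.71, 1.94 and 2.93 FPKM at D22, and 2.29, 1.92 and 1.38 FPKM at D28, beside 0.714, 0.869 and 0.790 FPKM at 8.5 dpp. The D6 libraries were far above the rest and all later libraries were still above those of 8.5 dpp. The D6 mean was 12.3 times the 8.5 dpp mean, with a log2 fold change of 2.58 ± 0.14 (F test, adjusted p = 9.82e-08). These were the 2 genes with the C/EBP-ATF element in the promoters shown above, and their rises at D6 were the largest among the 10 on the log2 scale, a relation on which no test was run.

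Sesn2 was at 26.2, 29.6 and 36.0 FPKM at D6, 42.7, 44.7 and 44.8 FPKM at D16, 38.4, 50.9 and 51.7 FPKM at D22, and 47.9, 42.5 and 46.3 FPKM at D28, beside 6.33, 7.49 and 5.54 FPKM at 8.5 dpp. All 12 cultured libraries were above the highest in vivo library of any age, which had 25.6 FPKM. Log2 fold changes were 2.08 ± 0.14 at D6 and 2.65 ± 0.14 at D28 (F test, adjusted p = 1.55e-08). The D28 mean was 7.06 times the 8.5 dpp mean. An annotated long noncoding RNA shares 590 bases with Sesn2 in GRCr8.

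Ddit3 was at 44.2, 47.5 and 47.6 FPKM at D6, 23.1, 27.1 and 30.3 FPKM at D16, 32.6, 30.5 and 29.5 FPKM at D22, and 37.5, 29.2 and 29.6 FPKM at D28. All cultured libraries were above those of 8.5 dpp and those of D6 above those of later times. The log2 fold change was 1.54 ± 0.11 at D6 (F test, adjusted p = 1.36e-06), and at D16, D22 and D28 the ratio of medians was 1.73, 1.95 and 1.89, under the limit of 2. Atf4 was at 298, 307 and 312 FPKM at D6, 197, 175 and 202 FPKM at D16, 208, 216 and 204 FPKM at D22, and 212, 201 and 189.9 FPKM at D28. The D6 libraries were above all others of the study and the later ones below those of 8.5 dpp. The log2 fold change was 0.42 ± 0.07 at D6 and -0.18 ± 0.07 at D28, with a ratio of medians of 1.36 at D6, and Atf4 was called at none of the 4 times.

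Among the enzymes, Psat1 was at 104, 104 and 87.9 FPKM at D6, 102, 103 and 118 FPKM at D16, 105, 114 and 113 FPKM at D22, and 84.4, 104 and 91.4 FPKM at D28, all above the 8.5 dpp range of 32.7 to 45.4 FPKM. It was called higher at each time, with log2 fold changes from 1.24 at D28 to 1.49 at D22 (F test, adjusted p = 1.21e-06). Phgdh, at 38.8 to 69.5 FPKM in culture and 22.6 to 24.0 FPKM at 8.5 dpp, was also called higher at each time, from 0.98 at D16 to 1.27 at D22 (F test, adjusted p = 0.000221). Asns was at 56.9, 57.3 and 61.0 FPKM at D6 and 36.0 to 58.0 FPKM at later times, and was called at D6 alone, with 1.16 ± 0.16 (log2, F test, adjusted p = 0.000259). Slc7a5 was at 43.8 to 50.4 FPKM at D6 and 22.7 to 28.1 FPKM later, on either side of the 8.5 dpp range of 32.9 to 36.1 FPKM, and was not called at any time. Xbp1, at 71.8 to 73.8 FPKM at D6 and 51.3 to 59.8 FPKM later, was not called either, and its difference at D6 had a 95% interval of -0.18 to 0.14 on the log2 scale.

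At later times fewer of the 10 were called against 8.5 dpp, with 4 at D16, 5 at D22 and 5 at D28, beside 22%, 23.2% and 23.6% of all genes (12.5%, 13.3% and 13.2% higher). Sesn2, Psat1, Phgdh and Trib3 were called at all 3 times, and Chac1 at D22 and D28 as well, all higher, and without Trib3 the counts were 3, 4 and 4 of 9. Without D16 replicate 3, Phgdh was not called at D16, at 0.89, and Chac1 was, at 0.61. With the 2-fold limit set on the log2(FPKM + 1) scale, Phgdh at D16 (0.98) and Chac1 at D22 (0.97) and D28 (0.67) were not called. Ddit3 at D28 (1.01) was then called. Of the Leydig cell, peritubular cell and red cell markers tested, 4 of 6, 3 of 4 and 1 of 2 were called lower at D6, beside 6.18% of all genes. Of the macrophage and endothelial markers, 3 of 5 and 2 of 5 were called higher, beside 10.3% of all genes. In both of these sets 1 marker passed the filter only through culture, and 2 of the other 4 were called. The summed level of the 6 macrophage markers was 18.8 to 20.3 FPKM at 8.5 dpp and 25.8 to 32.4 FPKM at D6, with Cd163 at 0 in culture. The 4 peritubular markers summed to 389 to 467 FPKM at 8.5 dpp, 138 to 268 FPKM at D6 and 45.2 to 98.7 FPKM from D16 to D28. The part of these cells in the changes was not tested.

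The course within culture separated an early peak from a lasting level. An F test over the 4 culture times called 3 of the 10 genes, Trib3, Chac1 and Slc7a5, beside 6.71% of all 11358 genes tested. All 3 had their highest level at D6. Between D6 and D16, the log2 change was -2.36 for Trib3, -2.05 for Chac1 and -0.97 for Slc7a5, all called (adjusted p = 6.08e-05, 6.08e-05 and 0.000111), and 3% of all genes were called. Of the 4 peritubular markers, 2 were called lower in the same step, and their part was not tested. The D16 mean was 13.5% of the D6 mean for Trib3 and 16.4% for Chac1. The call of Slc7a5 had a ratio of medians of 2.02 and ended under a median-ratio or quantile rescaling of the libraries, at 1.99 and 1.97, and without D6 replicate 1, D6 replicate 2 or D16 replicate 1, at 1.99, 1.94 and 1.97.

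Atf4, Ddit3 and Xbp1 also had lower values after D6, with ratios of medians under 2, and log2 fold changes from D6 to D16 of -0.68 ± 0.08, -0.78 ± 0.12 and -0.43 ± 0.08 (adjusted p = 0.000542, 0.00229 and 0.00572). Sesn2 had the opposite sign, 0.52 ± 0.13 (adjusted p = 0.0249), again with a ratio under 2. For Psat1 the difference between D28 and D6 had a 95% interval of -0.32 to 0.15 and for Phgdh of -0.44 to 0.40 on the log2 scale. Between D16 and D22 and between D22 and D28, 0 of the 10 genes were called by limma, beside 0.264% and 0.0088% of all genes, and 2 genes at each step had an unadjusted p under 0.05. Of these steps, that of Trib3 from D16 to D22 was the largest, 0.82 ± 0.19 (adjusted p = 0.110), and it passed with all 10 groups in 1 fit (adjusted p = 0.00469).

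The 14.5 dpp testes were the study's prepubertal control, and explants of D6 had the same age as these. At D6, Trib3 and Chac1 were called, both higher, beside 7.94% of all 11309 genes tested (5.57% higher). The log2 fold change was 3.83 ± 0.15 for Trib3, which passed the filter only through the D6 libraries, and 1.92 ± 0.14 for Chac1 (adjusted p = 0.00140), so that 1 of the 9 genes that passed otherwise was called, and the 14.5 dpp libraries held 0.0486 and 0 FPKM of Trib3 and 1.67 and 1.97 FPKM of Chac1. Atf4, Ddit3 and Asns stood just under the limit on the fold, with ratios of medians of 1.91, 1.98 and 1.88 and adjusted p of 0.00924, 0.00785 and 0.0191. For each of the 3 genes, all D6 libraries were above both 14.5 dpp libraries. With either 14.5 dpp library left out, 4 genes were called, Atf4 and Asns joining without replicate 1 and Ddit3 and Sesn2 without replicate 2. Psat1, Phgdh, Slc7a5 and Xbp1 were not called, with 95% intervals on the log2 scale of -0.54 to 0.11, -1.0 to 0.73, -0.13 to 0.48 and -0.39 to 0.51. With both 14.5 dpp libraries Sesn2, at a log2 fold change of 1.05, was not called either, its adjusted p being above the limit. The median over the 10 genes was 0.92, beside -0.04 over all genes. At the same time 6 of 6 Leydig cell markers were called lower, beside 2.37% of all genes, and 3 of 5 macrophage and 3 of 4 endothelial markers higher. Of the macrophage markers, 1 passed the filter through D6 alone, and 2 of the other 4 were called. The part of these cells in the differences was not tested.

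Against the same 14.5 dpp libraries, Trib3 and Sesn2 were called at D16, D22 and D28, both higher, beside 11.9%, 12.9% and 13.6% of all 11517 genes tested (6.56%, 7.34% and 7.64% higher). Log2 fold changes of Sesn2 were 1.57 ± 0.27, 1.65 ± 0.27 and 1.62 ± 0.27 (F test, adjusted p = 0.00367). Those of Trib3 were 1.47 ± 0.20, 2.30 ± 0.20 and 1.82 ± 0.20, and without Trib3, which passed the filter only through culture, 1 of 9 genes was called at each time. Slc7a5 differed by -0.79 ± 0.10 at D16 (F test, adjusted p = 0.00117) with a ratio of medians that did not reach 2. Chac1 at D28 overlapped the 14.5 dpp testes, with a difference at D28 whose 95% interval was -0.38 to 0.40 on the log2 scale. These comparisons share their controls, so their counts are not independent of each other. For Sesn2, the 14.5 dpp libraries stood apart from each other, at 9.21 and 21.4 FPKM, and the calls were the same without either of them.

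**Figure D2:**
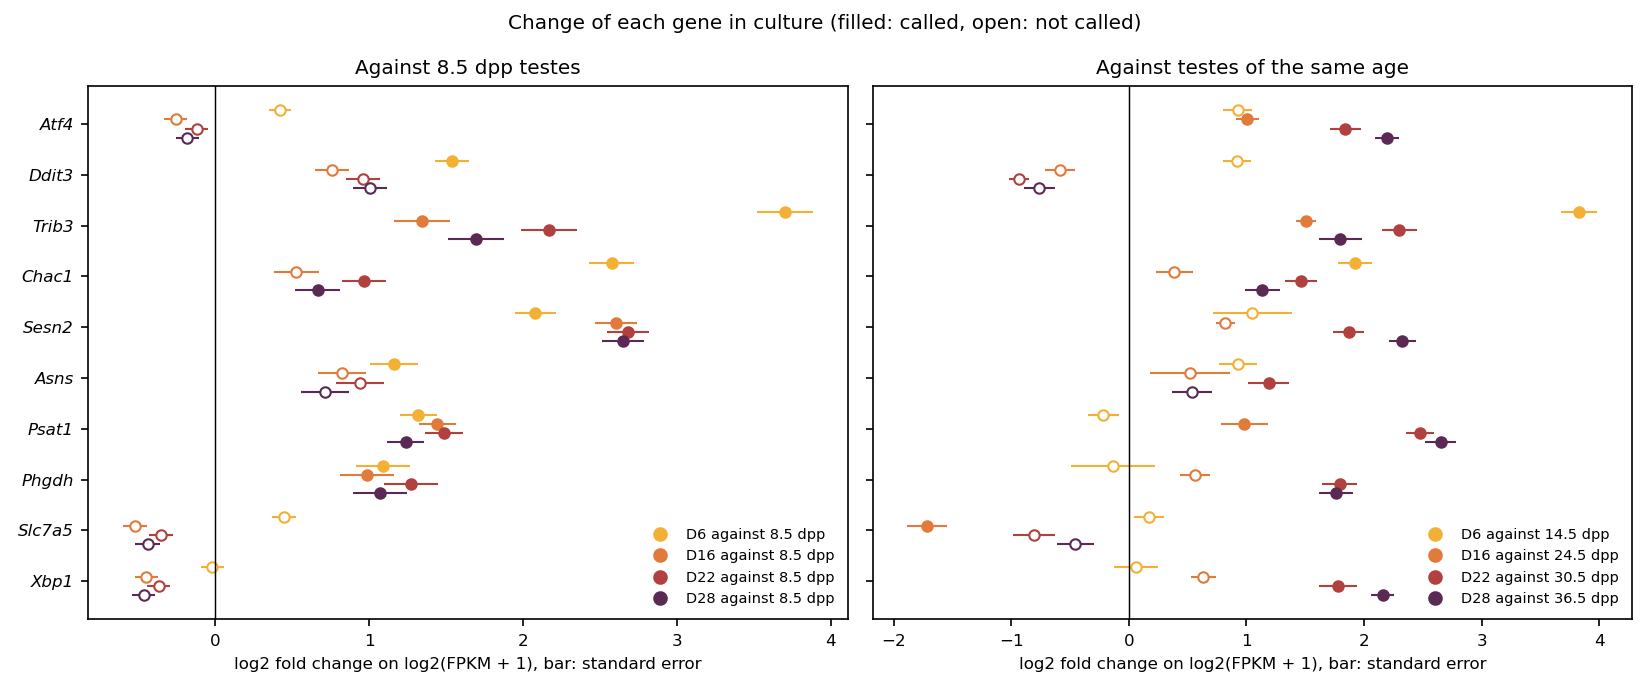
Log2 fold change on log2(FPKM + 1) with its standard error (horizontal axes) for each gene and culture time, against 8.5 dpp testes (left) and testes of the same age (right). Filled points were called and open points were not. Against 8.5 dpp, Sesn2 stays between 2.08 and 2.68 while Trib3 and Chac1 are highest at D6. Against older testes, Atf4, Psat1 and Xbp1 lie further to the right at D28 than at D6, and Ddit3 and Slc7a5 lie left of 0 from D16.

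Against testes of the same age, more of the 10 genes were called at D22 and D28 than at D6 and D16, and the same held over the whole table. At D16 against 24.5 dpp, 4 of the 10 were called, beside 43.6% of all genes, with Atf4, Psat1 and Trib3 higher (25.3% of all genes) and Slc7a5 lower (18.3%). The call of Psat1 ended at 0.88 and 0.86 without 24.5 dpp replicate 1 or 2, and that of Atf4 at 0.97 without D16 replicate 3. At D22 against 30.5 dpp, 8 were called, all higher, beside 65% of all genes (42.1% higher). At D28 against 36.5 dpp, 7 were called, all higher, beside 70.3% of all genes (46.7% higher). Trib3 at all 3 times, and Chac1 at D22 and D28, passed the filter only through culture, and of the other genes 3 of 9, 6 of 8 and 5 of 8 were called at D16, D22 and D28. The median over the 10 genes at D28 was 1.78, beside 0.64 over all genes. Over all genes the medians at D16 and D22 were 0.12 and 0.51.

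Atf4 was higher by 1.01 ± 0.10 at D16, then 1.84 ± 0.13 at D22 and 2.20 ± 0.10 at D28 (log2, adjusted p = 0.000115, 9.91e-06 and 7.94e-07). As the values above show, culture stayed near 201 FPKM in the mean at D28 while the testis had 43.0 FPKM at 36.5 dpp. Xbp1 at D28 differed by 2.16 ± 0.10, Psat1 by 2.65 ± 0.13, Phgdh by 1.76 ± 0.15 and Sesn2 by 2.32 ± 0.12 (adjusted p = 7.74e-07, 1.14e-06, 1.51e-05 and 1.13e-06). For these 5 genes no D28 library overlapped the testes of 36.5 dpp. Over the alternative settings and left-out libraries, the D28 difference ranged from 1.38 to 2.37 for Atf4 and from 1.36 to 2.25 for Xbp1. The range was 1.85 to 2.75 for Psat1, 0.96 to 1.89 for Phgdh and 1.54 to 2.44 for Sesn2. For Chac1 and Trib3 the log2 differences at D28 were 1.13 ± 0.15 and 1.80 ± 0.18, given as a description. Asns was called higher at D22 alone, by 1.19 ± 0.17 (adjusted p = 0.000469), and this call ended at 0.55 after rescaling of libraries by their median ratio.

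Ddit3 and Slc7a5 had the other sign. The difference of Ddit3, culture minus testis, was -0.58 ± 0.13 at D16, with -0.93 ± 0.09 at D22, and with -0.76 ± 0.13 at D28 (adjusted p = 0.00540, 3.94e-05 and 0.000924), with no overlap of libraries at any of these ages and a ratio of medians of 1.97 at D22, under the limit. Slc7a5 was called lower at D16, with -1.71 ± 0.17 (adjusted p = 0.000137), where the testis had its peak, and differed by -0.80 ± 0.18 at D22 and -0.46 ± 0.16 at D28 without a call. After rescaling by the median ratio, Ddit3 was -1.58 at D22 and -1.57 at D28 and Slc7a5 was -1.44 and -1.26, each then called lower, while at D16 the calls of Atf4 and Psat1 ended at 0.88 and 0.86. An interaction contrast called the effect at D28 different from that at D6 for 9 of the 10 genes, beside 76.5% of all genes, so such a difference was usual. The 9 include Trib3, which passed the filter only through culture. Beside these results, all 8 germ cell markers called at D28 against 36.5 dpp were lower and all 6 Sertoli cell markers called were higher, with medians over the 9 and 7 markers tested of -3.74 and 3.07. Germ cell markers summed to 3075 to 4489 FPKM at 36.5 dpp and 54.8 to 122 FPKM at D28, with Prm1, Tnp1 and Acrv1 at 0 at D28. The part of cell composition in these differences was not tested.

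Atf4 and Ddit3 moved apart with age, and their ratio was taken within each library. Atf4 FPKM divided by Ddit3 FPKM was 14.9 ± 1.19 (SD, n = 3) at 8.5 dpp, 6.71 ± 1.05 (SD, n = 2) at 14.5 dpp, 2.34 ± 0.191 (SD, n = 3) at 24.5 dpp, 0.973 ± 0.153 (SD, n = 3) at 30.5 dpp, 0.791 ± 0.113 (SD, n = 3) at 36.5 dpp and 0.689 ± 0.0304 (SD, n = 3) at 53.5 dpp. In culture it was 6.58 ± 0.145 (SD, n = 3) at D6, 7.21 ± 1.13 (SD, n = 3) at D16, 6.80 ± 0.365 (SD, n = 3) at D22 and 6.32 ± 0.618 (SD, n = 3) at D28. The 12 cultured libraries lay between 5.66 and 8.51, around the 14.5 dpp values of 5.97 and 7.46, with all testes of 24.5 dpp and older below and all 8.5 dpp testes above. The 30.5 and 36.5 dpp testes overlapped, as did the culture times among themselves and with 14.5 dpp. No test was run on this ratio.

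**Figure D3:**
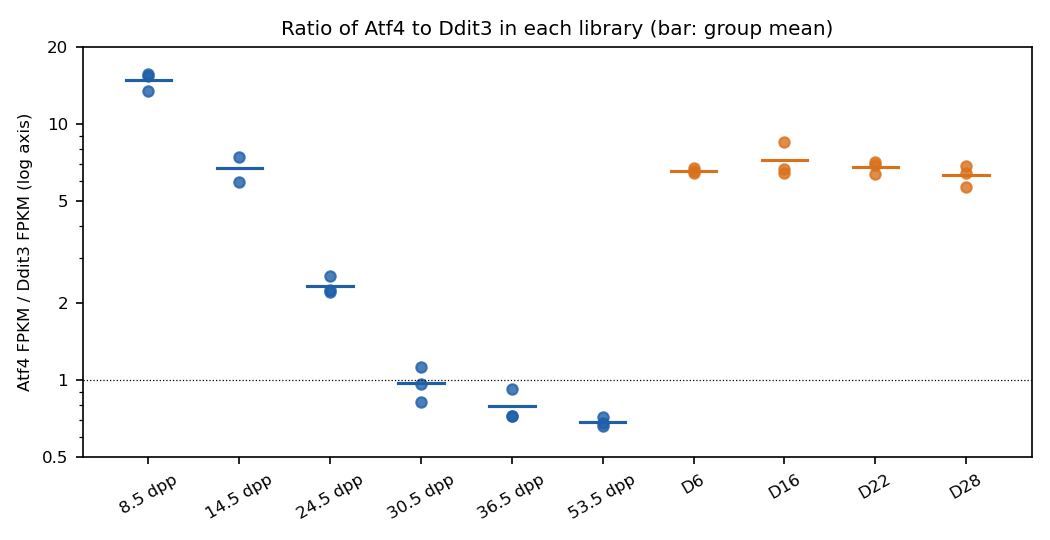
Ratio of Atf4 FPKM to Ddit3 FPKM in each library (points, log axis) by group, blue in vivo and orange in culture, with bars at group means. The ratio falls from 14.9 at 8.5 dpp to 0.689 at 53.5 dpp, and cultured groups stay between 6.32 and 7.21.

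Set against all ages in vivo, 5 of the 10 genes had every D6 library above every in vivo library, Atf4, Asns, Trib3, Chac1 and Sesn2, beside 8.16% of 12762 genes. At D16, D22 and D28 this held for Trib3 and Sesn2, beside 11.5%, 11.4% and 10.4% of genes. Trib3 passed the filter of 0.5 FPKM only through culture, so its place above the testes is a description. Without it, Atf4, Asns, Chac1 and Sesn2 remained at D6. At the later times Sesn2 alone remained, a share near that of all genes. Atf4, Asns and Chac1 at later times overlapped the in vivo range.

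Other genes of the pathway were read from 8 lists, whose counts at D6 against 14.5 dpp stand beside 7.94% of all genes called (5.57% higher). Of 15 tested regulators and secreted factors linked to ATF4, 5 were called, all higher, with a median of 0.51, and 3 of the 13 that did not pass the filter through D6 alone. Atf3, a stress-induced factor, had 13.7, 16.4 and 11.7 FPKM at D6 and 3.98 and 2.35 FPKM at 14.5 dpp, a log2 fold change of 1.86 ± 0.22 (adjusted p = 0.00614), and was called higher at every culture time. Cebpb, a partner of ATF4, was higher by 2.07 ± 0.14 and Atf5, itself a target of ATF4, by 1.07 ± 0.17 (adjusted p = 0.00115 and 0.0144). The other called genes, named after their values were seen, were the secreted factors Fgf21 and Gdf15, which passed the filter only through D6 and are given without a test, Fgf21 being listed at 0 in both 14.5 dpp libraries. Nupr1 is listed at 0 in all libraries. Of 13 amino acid transporters 5 were called, all higher, with a median of 0.47 (4 of 12 without Slc7a3, named after its values were seen, which passed through D6 alone), among them Slc7a11, the cystine transporter, by 0.87 ± 0.22 (adjusted p = 0.0499). Slc3a2, the partner chain of SLC7A5, had a difference whose 95% interval was -0.34 to 0.56.

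In the lists for ER stress itself, at D6 against 14.5 dpp, 0 of 5 ER stress sensors and proteases, 0 of 19 ER chaperones and folding enzymes and 0 of 12 genes of ER-associated degradation were called, with medians of -0.01, 0.06 and 0.14 and an unadjusted p under 0.05 for 0, 3 and 3 genes. Beside 7.94% of all genes, lists of these sizes cannot set 0 apart from the background. Hspa5, the chaperone BiP and a standard readout of ER stress, was at 392, 439 and 381 FPKM at D6 and 308 and 535 FPKM at 14.5 dpp, with a 95% interval of -0.59 to 0.57. The 14.5 dpp libraries lay on both sides of all D6 libraries. Herpud1, a gene of ER-associated degradation, differed by 0.57 ± 0.12 (adjusted p = 0.0328) with a ratio of medians of 1.46, and Dnajb9, an ER co-chaperone, had an interval of -0.39 to 0.67. Of the eIF2 kinases, phosphatase subunits and eIF2B, 0 of 13 were called, with 2 at an unadjusted p under 0.05. Ppp1r15a, the stress-induced subunit that reverses eIF2 phosphorylation, differed by 0.59 ± 0.14 (adjusted p = 0.0411), and Eif2ak3, the kinase PERK, had an interval of -0.20 to 0.38 and Eif2ak4, the kinase GCN2, of -0.15 to 0.65. For other metabolism, 1 of 15 genes of serine, one-carbon, proline and asparagine synthesis and 1 of 20 cytosolic aminoacyl-tRNA synthetases were called, both higher, Aldh1l2 and Aars1, with list medians of 0.02 and 0.13, the names being read after the values and Aldh1l2 having passed the filter through D6 alone.

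At D28 against 14.5 dpp, 13.6% of all genes were called (7.64% higher), and of the ATF4-linked list 2 of 15, a share near that background, Atf3 at 1.23 ± 0.30 and Cebpb at 1.48 ± 0.32 (F test, adjusted p = 0.00670 and 0.0285). Of 13 transporters, 3 were higher and 1 lower, with a median of -0.06. Slc7a3 was among those higher and passed the filter only through culture, and 3 of the other 12 were called. Of 20 ER chaperones and folding enzymes, 1 was higher and 1 lower, with a median of -0.05. Of 5 ER stress sensors and 13 genes of the eIF2 list, 0 were called by limma at this time, with 2 and 3 at an unadjusted p under 0.05. Whether the lists differ from each other was not tested.

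**Figure D4:**
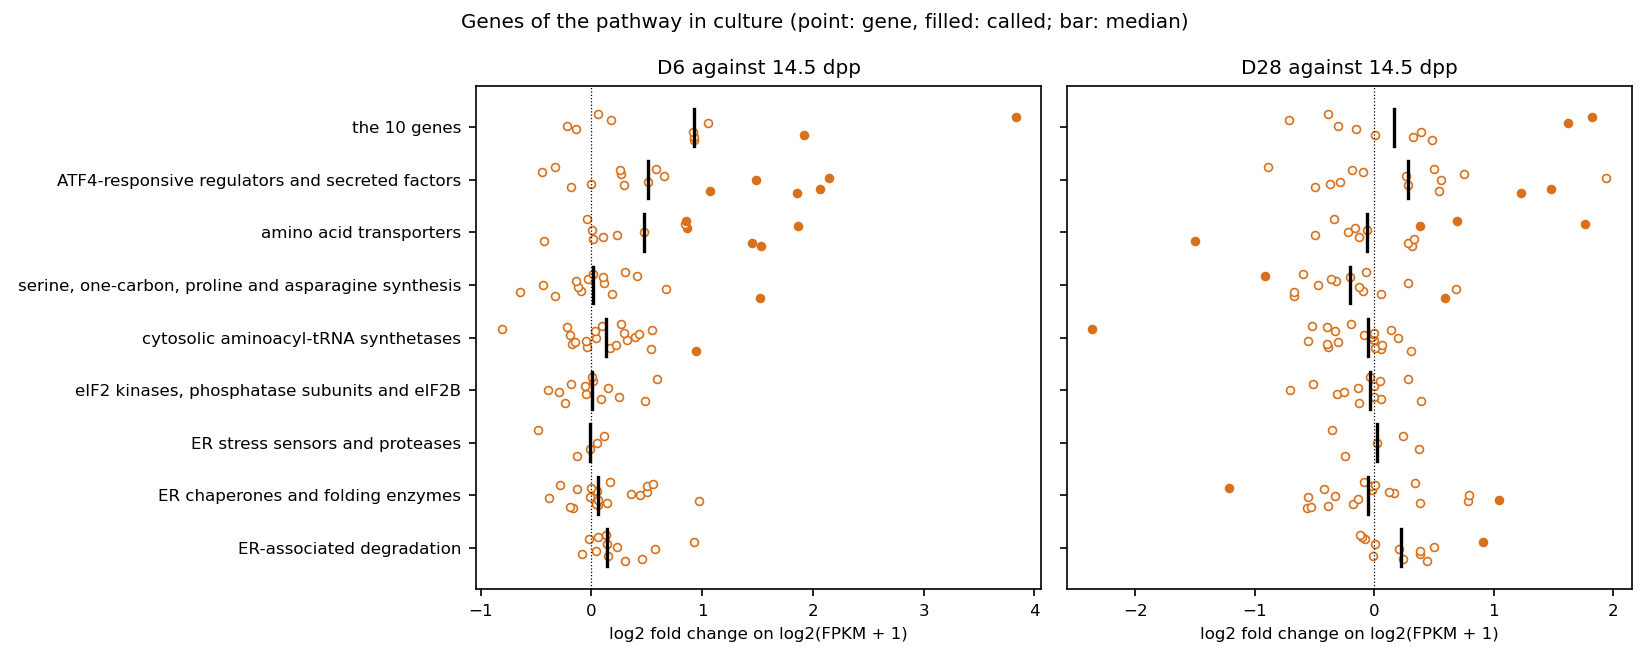
Log2 fold change on log2(FPKM + 1) of each tested gene (points, filled where called) in the 10 genes and in 8 lists of the pathway, at D6 (left) and D28 (right) against 14.5 dpp, with bars at list medians. At D6 the medians are 0.92 for the 10 genes, 0.51 for ATF4-linked regulators and secreted factors and 0.47 for transporters, and 0.06 for ER chaperones.

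Relatives of 3 of the genes are given beside them, and whether their courses differ from those of the 3 was not tested. Sesn1 and Sesn3, the other sestrins, were at 26.6 to 45.1 and 9.69 to 19.5 FPKM in culture, and neither was called against 14.5 dpp at D28, where log2 fold changes were 0.75 ± 0.13 and -0.09 ± 0.18. Trib1 and Trib2, the other Tribbles pseudokinases, were detected in vivo, with 81.1 to 88.5 FPKM of Trib2 at 8.5 dpp and 0.934 to 1.36 FPKM at 53.5 dpp, a log2 fold change of -5.38 ± 0.24 (adjusted p = 1.84e-11). Chac2, the constitutive relative of Chac1, was at 10.0 to 13.7 FPKM in culture, and its difference at D6 against 14.5 dpp had an interval of -0.04 to 0.63. Cebpg, a further partner of ATF4, was at 26.3 to 27.7 FPKM at 8.5 dpp and 75.8 to 91.5 FPKM at 53.5 dpp, higher by 1.61 ± 0.09 (adjusted p = 4.12e-10), and was at 23.5 to 35.6 FPKM in culture.

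Across the 10 group means of log2(FPKM + 1), which share libraries and normalization, the gene most like each of the 10 among 12762 genes was found by Pearson's r, as a description. It was Cotl1 for Atf4 (r = 0.995), Ell for Ddit3 (r = 0.962) and Pirt for Trib3 (r = 0.996). For Chac1 it was Slc7a3, a transporter of arginine and lysine (r = 0.957), and for Sesn2 it was Stim1 (r = 0.993). For the enzymes it was Cavin4 for Asns (r = 0.929), Polr1b for Psat1 (r = 0.997) and Map4k2 for Phgdh (r = 0.991). For Slc7a5 it was Lman2 (r = 0.977) and for Xbp1 Enc1 (r = 0.999).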

How the data were processed

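Testes and cultured explants were profiled by sequencing of polyadenylated RNA with a stranded kit. Per the labels and the study's methods, the authors aligned reads with STAR 2.5.2a to the rat genome rn6 and quantified RefSeq transcripts. The deposited values are FPKM per gene, normalized to transcript length and mapped reads. Strand use in counting is not given in the sources used here. Read counts were not used, so depth per library is unknown and no interval rests on it, and the number of libraries limits precision. Of 30 columns 29 were used. Identifiers were named through a RefSeq table of GRCr8, which held 17172 of 17322.

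The log2(FPKM + 1) values of genes whose median reached 0.5 FPKM in a compared group were fitted with limma 3.58.1 in R 4.3.3 (lmFit, eBayes), adjusted by Benjamini-Hochberg over all genes tested, and called if the adjusted p was 0.05 or less and the group medians differed 2-fold or more. An F test over its contrasts was used for D16, D22 and D28 against 14.5 dpp, for culture against 8.5 dpp and for both courses. Each age-matched pair had its own fit. Steps within a course used the moderated test of the contrast, and the difference of the age-matched effect between D28 and D6 an interaction contrast, called on its adjusted p alone. Intervals are 95% intervals of the contrast. Tables and figures were made with Python 3.11.15, pandas 2.3.3, numpy 2.4.6 and matplotlib 3.10.9. The fits were tested on simulated data. The 10 genes and all lists were chosen with earlier results of these data known. Outside the 10, genes were named by a written rule, and exceptions are marked. Mars1, which overlaps Ddit3 in GRCr8, is a further exception to the rule. Replicates were separate testes or separate pools of explants, and whether pools share animals is not stated. Alternatives changed the pseudocount, filter, fold criterion, prior variance, normalization, samples in the fit, replicate block and libraries used.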

Additional observations from a re-analysis of the deposited data

Results flagged for a closer look

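The effect of culture against testes of the same age differed between D28 and D6 for 9 of the 10 genes by an interaction contrast in limma, beside 76.5% of all 12482 genes tested, whose median difference was 0.63 on the log2 scale. Such a difference was thus usual over the whole table, and the count of 9 includes Trib3, for which no test is given. Values are the effect at D28 minus that at D6, in log2. The difference was larger than 0 for Psat1 at 2.87 (adjusted p = 2.82e-07), Xbp1 at 2.10 (adjusted p = 5.25e-06), Phgdh at 1.90 (adjusted p = 0.00158), Atf4 at 1.27 (adjusted p = 1.51e-05) and Sesn2 at 1.27 (adjusted p = 0.00910). It was below 0 for Trib3 at -2.03, which passed the filter only through culture and is given without a p, Ddit3 at -1.68 (adjusted p = 7.03e-06), Chac1 at -0.79 (adjusted p = 0.00631) and Slc7a5 at -0.63 (adjusted p = 0.0180). The fitted effect changed sign for Ddit3, from 0.92 at D6 to -0.76 at D28, with intervals that held 0 at neither time. For Slc7a5 the fitted effect went from 0.17 to -0.46, for Psat1 from -0.22 to 2.65 and for Phgdh from -0.14 to 1.76. The intervals of these D6 effects held 0, at -0.13 to 0.48, -0.54 to 0.11 and -1.0 to 0.73 in that order. Whether the sign changed for Slc7a5, Psat1 and Phgdh is thus not settled. The call of Sesn2 ended at 0.45 after rescaling of libraries by their median ratio and at 0.82 after quantile normalization, that of Chac1 at -0.02 with a pseudocount of 0.1, and that of Slc7a5 at -0.57 without 14.5 dpp replicate 1. Germ cell markers differ between the testes of 14.5 and 36.5 dpp, and their part in these differences was not tested. The remaining gene, Asns, was not called, except after rescaling by the median ratio, at -1.27.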

How the results depend on the processing

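Of 10677 values of single genes recomputed under 11 other settings and without each of 29 libraries, 10334 kept their call, 111 lost it and 232 gained it, 165 of these without the fold criterion. No called value changed sign, and 150 values called in neither setting did. Without the fold criterion the genes called were 5 at D6 against 14.5 dpp (2 with it), 8 at D16 against 24.5 dpp (4 with it), 10, 10 and 10 at D16, D22 and D28 against 8.5 dpp (4, 5 and 5 with it) and 7 over the culture course (3 with it). Over all genes, calls at D16, D22, D28 and D6 against 14.5 dpp were then 3867, 3867, 3867 and 1755 (1371, 1480, 1571 and 898 with it), and 773, 878, 986 and 535 with a 2-fold limit on the log2(FPKM + 1) scale. Against 8.5 dpp they were 7443 at each time (1898 at D6, 2542, 2677 and 2718 later), and 989, 1575, 1772 and 1770 with that limit. At D16 against 24.5 dpp they were 8445 (5082), and over the culture course 2385 (762), and 377 with that limit. After rescaling by the median ratio, 2 were called at D16 against 24.5 dpp, Trib3 higher and Slc7a5 lower. With 1 library left out, counts ranged from 2 to 2 at D16, D22 and D28 against 14.5 dpp, 2 to 4 at D6 against 14.5 dpp, 3 to 4, 8 to 8 and 7 to 7 at D16, D22 and D28 against testes of the same age, 7 to 7, 4 to 5, 5 to 7 and 5 to 6 at D6, D16, D22 and D28 against 8.5 dpp, 2 to 3 over the culture course, 8 to 9 over the in vivo course and 8 to 9 for the interaction. Leaving out a 14.5 dpp library leaves 1, which is assumed to vary like the other groups. Same-numbered libraries correlated at -0.14 to 0.22 (median 0.02), and those of different numbers at -0.33 to 0.31 (median -0.01). Among culture groups alone the medians were 0.05 and -0.02. Pairing was not modelled in the main fits, and these values do not settle whether pools share animals. With the replicate block, 2 genes were called at D6 against 14.5 dpp, 7 at D28 against 36.5 dpp and 9 over the in vivo course, Asns joining, and all other counts were the same as without it, while calls over all genes at D6 against 14.5 dpp were 376 instead of 898. Depth is unknown, so a listed 0 of Trib3 sets no upper limit.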
